A study of Homo sapiens with 6 samples.

Results

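The genes described here are those of the extracellular and receptor end of the insulin-like growth factor (IGF) axis: the IGF binding proteins IGFBP1 to IGFBP7, the receptors IGF1R and IGF2R, and the receptor substrate IRS1. Every probe set annotated with exactly 1 gene symbol that is one of these 10 genes was taken, which gave 32 of the 44988 probe sets and 10 of the 18132 genes tested. The rule goes by gene symbol and uses no measured value, but the 10 genes were chosen with earlier results of these data known. Probe sets of 1 gene were read one by one and are numbered from the brightest, by mean intensity over all arrays. They share their gene and their arrays, so they are no replicates of each other.

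RNA came from 786-O cells, an established human line from a clear cell renal carcinoma, grown in medium with fetal bovine serum. The shPLEKHO1 group (3 arrays) received a lentivirus carrying a short hairpin RNA against PLEKHO1, and the shNC group (3 arrays) a lentivirus carrying a negative control hairpin. Both groups thus share the line and the lentiviral delivery, and the labels name 1 hairpin against PLEKHO1, so an effect of that hairpin on other transcripts cannot be told apart from an effect of PLEKHO1. Nothing says whether the 3 arrays of a group came from separate cultures, so each p-value rests on a spread between arrays that may be technical only.

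IGF1 and IGF2 signal through IGF1R, a receptor tyrosine kinase that phosphorylates IRS1 and IRS2 and so recruits PI3 kinase and the adaptor GRB2. IGF2R, the cation-independent mannose 6-phosphate receptor, carries no kinase: it takes IGF2 to the lysosome for degradation and sorts lysosomal enzymes. The IGF binding proteins hold the ligands in blood and tissue fluid, prolong their life or keep them from the receptor, and proteases that cut the binding proteins free the ligand; IGFBP3 is the main carrier in serum, and IGFBP7 binds IGFs only weakly.

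Of the 10 genes, 8 had an entry in the RefSeq promoter table of GRCh38.p14; IGFBP1 and IGFBP7 did not. The 250 bases before the annotated start are shown for IGFBP3, IGF1R, IGF2R and IRS1, the genes with at least 1 probe set that was called in all 14 alternative settings, so that the sequence at which their transcripts start can be read beside the values. They lie at chr7:45921273-45921522 on the minus strand (IGFBP3), chr15:98648289-98648538 on the plus strand (IGF1R), chr6:159968832-159969081 on the plus strand (IGF2R) and chr2:226799821-226800070 on the minus strand (IRS1), each written 5′ to 3′. Capitals mark matches on either strand to any of 8 short motifs. These were the TATA box, spelled TATAAA, the GC box that SP1 binds, spelled GGGCGG, the CCAAT box, spelled as its name, and the core of the hypoxia response element, spelled ACGTG. The others were the E-box of basic helix-loop-helix factors, spelled CACGTG, the AP-1 site, spelled TGANTCA, the core read by TEAD factors, spelled GGAATG, and the core of the insulin response element bound by FOXO factors, spelled CAAAACA.
IGFBP3: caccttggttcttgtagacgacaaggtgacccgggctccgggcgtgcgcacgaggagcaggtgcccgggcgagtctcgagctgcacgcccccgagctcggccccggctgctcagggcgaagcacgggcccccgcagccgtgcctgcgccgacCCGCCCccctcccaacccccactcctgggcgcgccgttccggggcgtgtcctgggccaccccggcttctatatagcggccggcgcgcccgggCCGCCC
IGF1R: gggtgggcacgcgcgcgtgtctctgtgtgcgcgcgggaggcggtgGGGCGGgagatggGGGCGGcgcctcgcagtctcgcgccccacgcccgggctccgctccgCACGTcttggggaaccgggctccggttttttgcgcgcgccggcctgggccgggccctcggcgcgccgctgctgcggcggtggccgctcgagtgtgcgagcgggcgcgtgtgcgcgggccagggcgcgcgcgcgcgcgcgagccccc
IGF2R: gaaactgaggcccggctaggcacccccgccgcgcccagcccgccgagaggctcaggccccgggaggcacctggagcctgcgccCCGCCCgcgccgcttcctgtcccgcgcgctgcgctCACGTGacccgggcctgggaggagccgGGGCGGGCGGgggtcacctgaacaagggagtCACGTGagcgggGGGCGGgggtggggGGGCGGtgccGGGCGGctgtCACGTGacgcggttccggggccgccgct
IRS1: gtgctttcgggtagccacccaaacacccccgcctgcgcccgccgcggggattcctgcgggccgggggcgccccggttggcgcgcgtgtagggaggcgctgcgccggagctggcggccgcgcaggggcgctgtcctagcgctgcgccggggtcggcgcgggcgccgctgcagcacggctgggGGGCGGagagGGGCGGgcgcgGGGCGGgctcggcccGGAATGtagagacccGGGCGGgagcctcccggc

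The IGFBP3 stretch held 2 GC boxes, read here as CCGCCC, one of them ending at the last base before the start. IGF1R held 2 GC boxes and 1 ACGTG core, read as CACGT. IGF2R held 6 GC box matches, with one pair overlapping, and 3 E-boxes, each of which also holds the letters ACGTG on both strands. IRS1 held 4 GC boxes and 1 TEAD core. Over 35116 promoters of the same length, 42.6% held a GC box, 11.9% a TEAD core, 18.5% ACGTG and 6.34% an E-box. The other motifs, with no match in these 4 stretches, were held by 10.7% (TATA box), 32.0% (CCAAT box), 6.57% (AP-1 site) and 4.30% (insulin response element core). All matches are descriptions of letters in these exact spellings, so a variant of a motif was not counted, and no binding was measured.

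PLEKHO1, the gene the hairpin targets, read 110.29, 115.69 and 97.37 with shPLEKHO1, against 134.75, 142.63 and 126.15 with shNC, with no overlap. PLEKHO1 fell by 19.9% (95% confidence interval 9.47% to 29.0%, limma adjusted p = 0.0124) on its single probe set, where 15.7% of all probe sets fell. The exact two-sided permutation test gave p = 0.1, the smallest that 3 against 3 arrays allow. Array medians lay between 55.7 and 57.1, and Pearson's r between arrays was 0.998 within groups and 0.988 to 0.989 between them. Among markers of the line, PAX8 was read at 354 with shPLEKHO1 and 424 with shNC, and vimentin (VIM) at 15448 and 14741. Of 11 measured kidney carcinoma markers, 3 rose and 5 fell, where 34.1% of all genes were called in either direction. The largest falls were those of CDH6 (306 with shPLEKHO1, 597 with shNC) and LHX1 (141 and 244). The largest rises were those of EPAS1 (1756 and 1207) and KRT18 (2173 and 1507). Summed intensities were 26325 to 26967 with shPLEKHO1 and 25488 to 25904 with shNC. VIM made up most of these sums, so they say little about the other markers. Leukocyte markers (5 measured, none called) summed to 244 to 252 with shPLEKHO1 and 243 to 263 with shNC. The lowest of them, the leukocyte antigen PTPRC, stood at 6.82 and 6.39, near the floor of the arrays. The highest, TYROBP, read 144 with shPLEKHO1 and 145 with shNC, and LST1 read 59.3 and 64.5. Endothelial markers (5 measured, none called) summed to 189 to 204 with shPLEKHO1 and 190 to 224 with shNC. Of 7 fibroblast and mural markers, summing to 205 to 247 with shPLEKHO1 and 196 to 216 with shNC, LUM alone rose (45.8 against 25.7). Their part in the results below was not tested.

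IGFBP3 was the member with the largest difference: its 2 probe sets were 2.39-fold and 2.53-fold lower with shPLEKHO1. IRS1 was higher by 1.25-fold and 1.27-fold on 2 of its 3 probe sets. IGF2R was 1.28-fold higher on 1 of 3 probe sets, and IGF1R moved both ways, 1.37-fold higher on 1 of 7 probe sets and lower on another. IGFBP1 fell by 13.8%. No probe set of IGFBP2, IGFBP4, IGFBP5, IGFBP6 or IGFBP7 passed the test.

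In counts, 4 of the 32 probe sets rose and 4 fell, 12.5% in each direction, where 17.3% of all probe sets rose and 15.7% fell at a limma adjusted p under 0.05; in either direction it was 33.0% of all. The count of 4 that fell was 2 without shPLEKHO1 replicate 2, without shNC replicate 2 or without shNC replicate 3, and IGFBP3 gave both of those calls. The arrays of the 2 groups did not overlap, on normalized values, for 12 member probe sets (8 higher and 4 lower), 37.5%, against 44.5% of all probe sets. The median difference of the members was 0.01 on the log2 scale, as over all probe sets (0.01), and the median size of the difference 0.11, against 0.12. Differences were under 0.2 in size for 22 of the 32. The 2 IGFBP3 probe sets were the only members at least 2-fold apart, a size that 1.90% of all probe sets reached. Nothing is read from these counts about the members as a group.

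**Figure D1:**
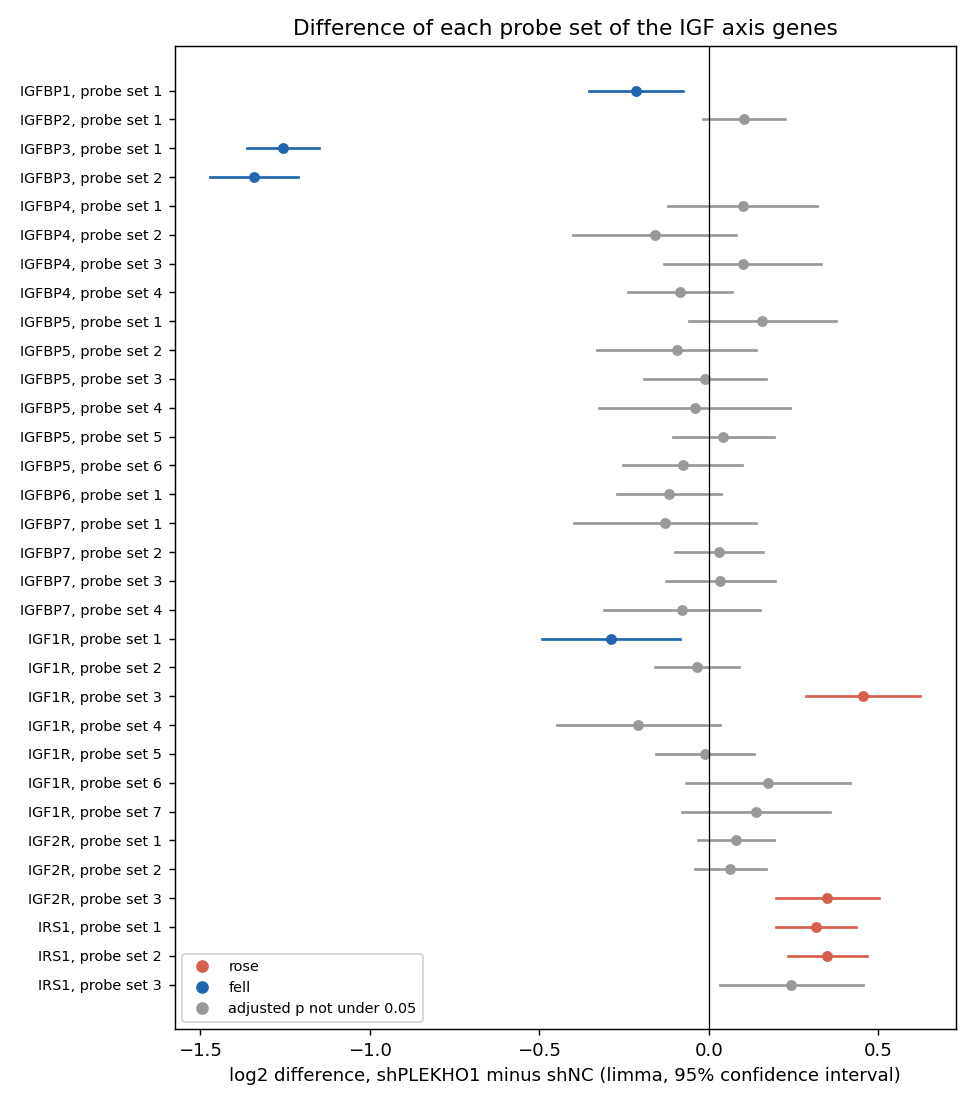
Log2 difference of the 32 probe sets, shPLEKHO1 minus shNC, with its 95% confidence interval from limma (3 arrays a group); points are blue where the probe set fell, red where it rose and grey where the adjusted p was not under 0.05. Both IGFBP3 probe sets lie below -1.2, and all others lie between -0.29 and 0.46.

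IGFBP3 was read at 3362, 3387 and 3359.9 with shPLEKHO1, against 8301, 8018 and 8277 with shNC, on probe set 1 (11749912_x_at). Its difference was -1.26 ± 0.05 (log2 difference ± SE, 95% confidence interval -1.36 to -1.15, limma adjusted p = 1.42e-06). Probe set 2 (11721135_s_at) gave 2414, 2421 and 2270.5 with shPLEKHO1, against 6307, 6106 and 5704 with shNC, a difference of -1.34 ± 0.06 (adjusted p = 2.12e-06). On both, the highest shPLEKHO1 array lay far below the lowest shNC array, and the shNC arrays differed among themselves by a small part of the gap. Among all probe sets, 265 fell further than the first and 205 further than the second. The 2 probe sets did not differ in their change beyond the spread between arrays: the difference between them was -0.09 ± 0.07 (95% confidence interval -0.25 to 0.08, adjusted p = 0.529). By Affymetrix naming, the endings x_at and s_at mark probe sets with probes that can also match other transcripts, so the share of the signal from IGFBP3 alone is not known. The same limit holds for every other probe set with these endings, among them that of IGFBP1 and the brightest of IGFBP4 and IGFBP7. In RNA from a whole culture, fewer cells with the transcript and less transcript per cell cannot be told apart.

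**Figure D2:**
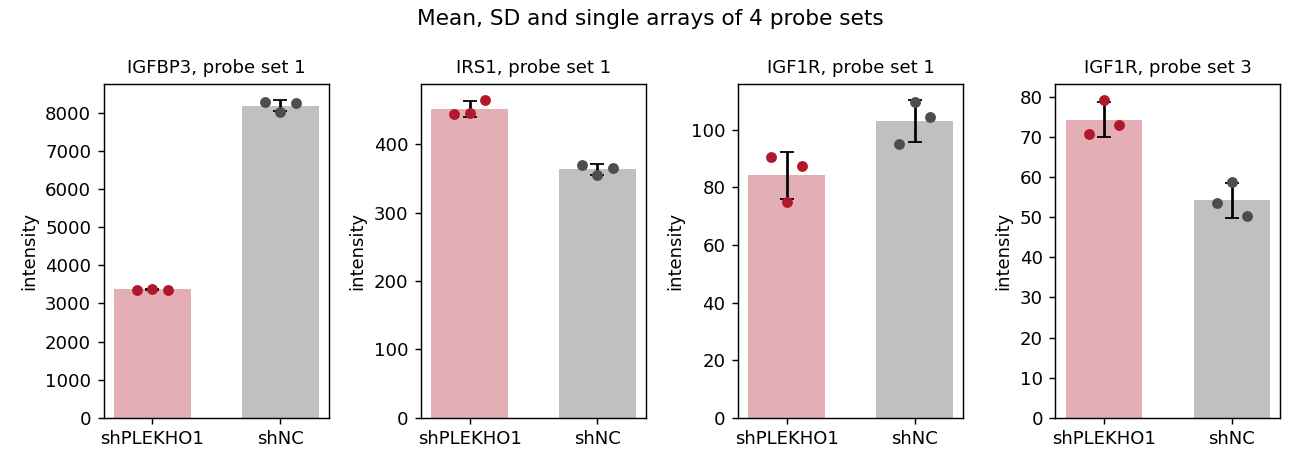
Intensity (linear axis from 0) of IGFBP3 probe set 1, IRS1 probe set 1 and IGF1R probe sets 1 and 3, with shPLEKHO1 left and shNC right; bars are means, error bars the SD and points the 3 arrays of each group. IGFBP3 averaged 3369.6 with shPLEKHO1 and 8198 with shNC, and the panels for IGF1R run in opposite directions.

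IGFBP1, whose protein in the body is made mainly by the liver and is under the control of insulin, has its gene next to IGFBP3 on chromosome 7. Its probe set (11717473_s_at) gave 71.8, 73.7 and 77.2 with shPLEKHO1, against 83.1, 91.1 and 84.6 with shNC. The groups did not overlap, but the gap between the nearest arrays was small. The difference was -0.21 ± 0.06 (limma adjusted p = 0.0261, range over the alternatives 0.0149 to 0.0877). The call was lost without shPLEKHO1 replicate 1 (adjusted p = 0.0851), shPLEKHO1 replicate 2 (0.0682), shNC replicate 2 (0.0877) or shNC replicate 3 (0.0519). On the other side of IGFBP3 lies TNS3, which codes for tensin 3, a focal adhesion protein, and was looked up after the IGFBP values were known. TNS3 gave 488, 531 and 522 with shPLEKHO1, against 965, 904 and 969 with shNC (-0.89 ± 0.05, adjusted p = 9.80e-06 over genes), and all 3 of its probe sets fell. Over all 18132 genes, 2895 fell. Genes next to the other members were not looked up, unless members themselves. CCDC201, on the other side of IGFBP1, was not analysed here.

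IGFBP2, a carrier found in many fluids, and IGFBP5, a carrier that also binds the extracellular matrix, have neighbouring genes on chromosome 2, and neither was called. IGFBP2 had 1 probe set, with 11.1, 10.8 and 11.6 with shPLEKHO1 against 10.2, 10.0 and 10.4 with shNC. These groups did not overlap, yet the difference of 0.10 ± 0.05 missed the threshold (limma adjusted p = 0.181). All 6 IGFBP5 probe sets were low, between 7.07 and 46.4 over all arrays, with overlapping groups and differences from -0.09 to 0.16. The brightest of them read 46.4, 38.5 and 42.2 with shPLEKHO1, against 42.2, 34.3 and 37.5 with shNC.

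IGFBP4 binds IGFs in the extracellular fluid until the protease PAPPA cuts it. Its brightest probe set read 81.3, 73.2 and 79.1 with shPLEKHO1, against 62.0, 80.0 and 76.6 with shNC, where the first shNC array stood below the other two. The 4 probe sets differed by -0.16 to 0.10, and none was called; probe set 2 (11715465_at) was called without shNC replicate 1 (limma adjusted p = 0.0399). That probe set read 16.5, 13.2 and 14.1 with shPLEKHO1, against 13.4, 17.6 and 18.1 with shNC. Compared array by array with the brightest IGFBP4 probe set, it was lower by a margin of -0.26 ± 0.07 (adjusted p = 0.0477). That call was kept in 1 of 12 alternatives and was lost in each of the 6 in which an array was left out: without shPLEKHO1 replicate 1 (0.0641), 2 (0.106) and 3 (0.145), and without shNC replicate 1 (0.0956), 2 (0.0699) and 3 (0.157).

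IGFBP6, a carrier that prefers IGF2, read 466, 549 and 505 with shPLEKHO1, against 600.0, 519 and 529 with shNC. The groups overlapped, and the difference was -0.12 ± 0.07 (limma adjusted p = 0.234). IGFBP7, a secreted protein laid down around vessels and in the matrix, read 2159, 1707 and 2360.04 with shPLEKHO1, against 2264, 2318 and 2143 with shNC, on probe set 1 (11715501_s_at). The second shPLEKHO1 array stood below the other five, and the difference of -0.13 ± 0.12 (adjusted p = 0.468) became 0.015 without it. The other 3 IGFBP7 probe sets were dimmer, with overlapping groups and differences from -0.08 to 0.03.

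Over the binding proteins, then, 3 of 19 probe sets were called, all lower, from IGFBP3 and IGFBP1, where 33.0% of all probe sets were called and 15.7% fell. The differences of the other 16, from 5 genes, ran from -0.16 to 0.16, and their 95% confidence intervals from -0.40 to 0.37 at the extremes. A missed call does not show that a transcript was unaltered.

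**Figure D3:**
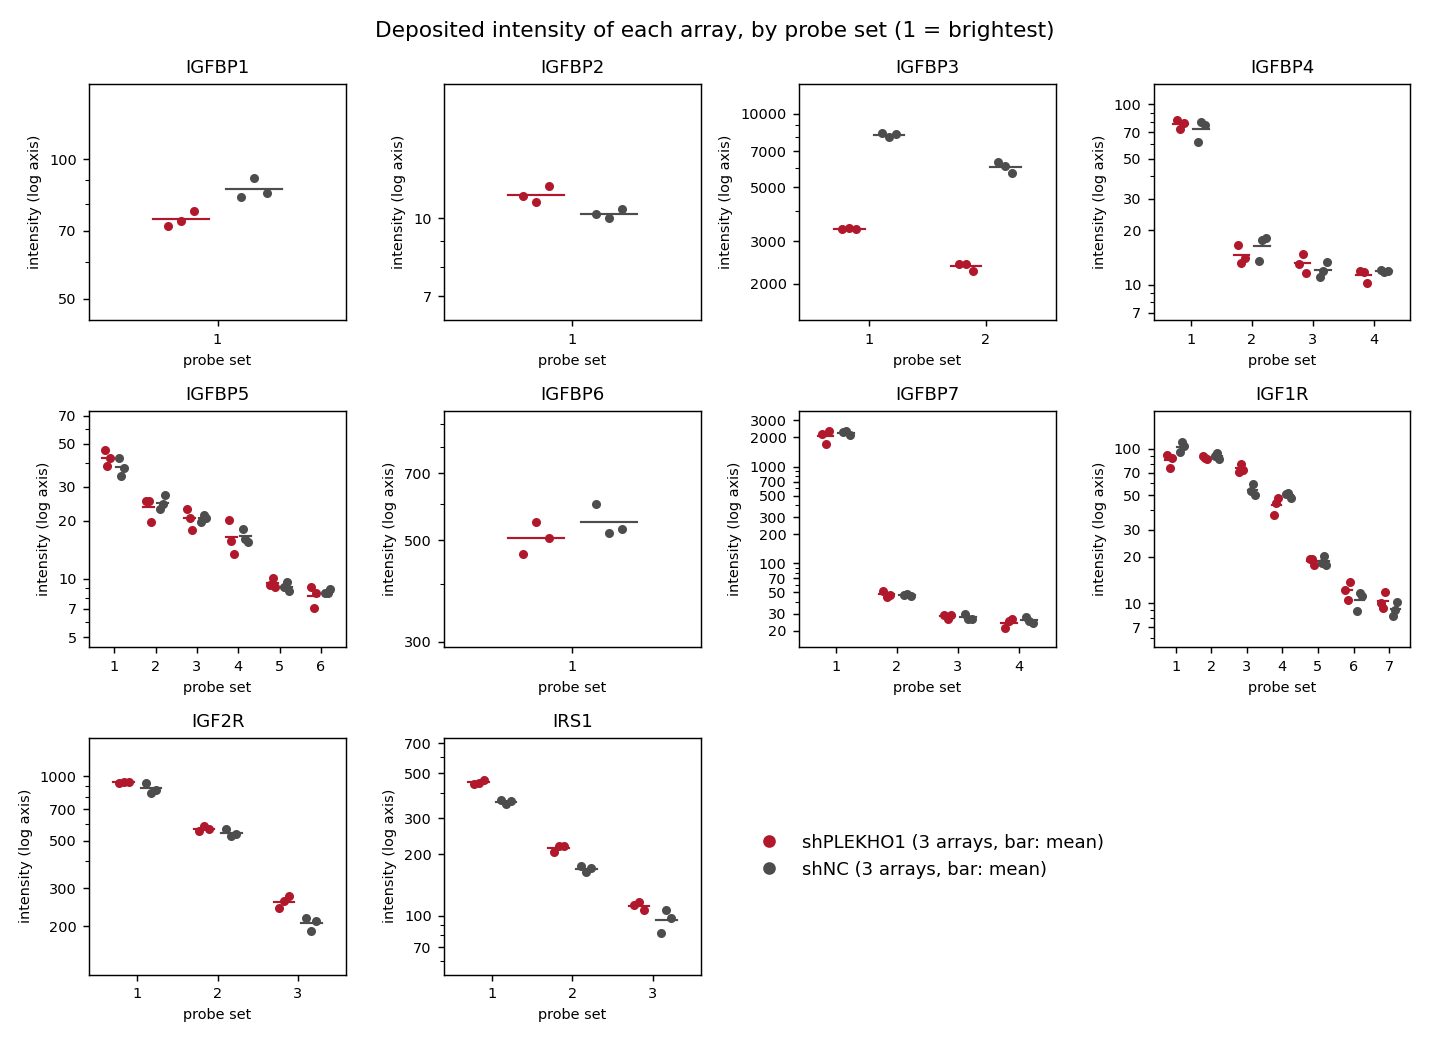
Deposited intensity (log axis) of all 32 probe sets by gene, numbered from the brightest; points are the 3 shPLEKHO1 arrays (red, left) and the 3 shNC arrays (grey, right), and short bars the group means. The groups are far apart for both IGFBP3 probe sets and separate for all 3 IRS1 probe sets, while those of IGFBP4, IGFBP5, IGFBP6 and IGFBP7 overlap.

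Among the receptors, IGF1R gave no single direction. Its brightest probe set (11718705_at), designed on a RefSeq mRNA, read 90.4, 74.8 and 87.3 with shPLEKHO1, against 95.1, 109.8 and 104.5 with shNC. The difference was -0.29 ± 0.09 (limma adjusted p = 0.0367, range over the alternatives 0.0137 to 0.118), and the groups did not overlap. This call, too, was lost without shPLEKHO1 replicate 2 (adjusted p = 0.0891), shPLEKHO1 replicate 3 (0.0523), shNC replicate 2 (0.118) or shNC replicate 3 (0.0947). Probe set 3 (11718704_at), designed on another kind of sequence record, read 70.7, 79.4 and 73.1 with shPLEKHO1, against 53.5, 58.8 and 50.4 with shNC. It rose by 0.46 ± 0.07 (adjusted p = 0.00167) and was called in 14 of 14 alternatives. The second probe set designed on a RefSeq mRNA read 89.8, 87.1 and 85.5 with shPLEKHO1, against 89.4, 93.2 and 86.1 with shNC, a difference of -0.03 ± 0.05. The remaining 4 differed by -0.21 to 0.18 and were not called.

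Whether IGF1R probe sets moved by unequal amounts was tested array by array against the brightest. Probe set 3 moved by 0.74 ± 0.12 more than the brightest (limma adjusted p = 0.00507), and probe set 6 (11718707_a_at) by 0.46 ± 0.08 more (adjusted p = 0.00658); both were called in 12 of 12 alternatives. Probe set 6 is dim, at 12.2, 10.5 and 13.7 with shPLEKHO1 and 8.95, 11.6 and 11.2 with shNC. Probe set 7 (11752328_a_at), dimmer still at means of 10.4 with shPLEKHO1 and 9.20 with shNC, moved by 0.43 ± 0.10 more (limma adjusted p = 0.0261). That call was lost without shPLEKHO1 replicate 2 (0.0820) or 3 (0.0880) and without shNC replicate 1 (0.0694) or 2 (0.0836). The IGF1R calls share 1 reference, whose own fall was called in 9 of 14 alternatives, so they are not separate results. Over all members 5 of 22 such pairs were called, 22.7%, against 15.2% of the pairs of all genes. The mean over the 7 IGF1R probe sets differed by 0.03 ± 0.05 (adjusted p = 0.683). Which transcript each IGF1R probe set reads is not analysed here.

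IGF2R read 929, 937 and 940.4 with shPLEKHO1, against 929, 833 and 865 with shNC, on its brightest probe set (11716129_at), where the first shNC array nearly reached the lowest shPLEKHO1 array. The difference was 0.08 ± 0.05 (limma adjusted p = 0.263). Probe set 2 read 557, 584 and 566 with shPLEKHO1, against 567, 529 and 539.7 with shNC (0.06 ± 0.05, adjusted p = 0.353), and the groups overlapped in these intensities. Probe set 3 (11753961_a_at) read 243, 263 and 275 with shPLEKHO1, against 217, 190.2 and 212 with shNC. It was the one IGF2R probe set that rose (0.35 ± 0.07, adjusted p = 0.00369), in 14 of 14 alternatives too. Its change exceeded that of the brightest by 0.27 ± 0.07 (adjusted p = 0.0376), a call kept in 3 of 12 alternatives. That call was lost without shPLEKHO1 replicate 2 (0.0884) or 3 (0.120), and without shNC replicate 1 (0.0826), 2 (0.117) or 3 (0.0794).

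IRS1, the docking protein that IGF1R and the insulin receptor phosphorylate, read higher on each of its 3 probe sets, and 2 of them passed the test. Probe set 1 (11743629_at) read 444, 445 and 465 with shPLEKHO1, against 369, 355 and 366 with shNC (0.32 ± 0.05, limma adjusted p = 0.00162). Probe set 2 (11743628_at) read 204, 219 and 219.6 with shPLEKHO1, against 175, 164 and 171 with shNC (0.35 ± 0.05, adjusted p = 0.000916). The groups stood clear of each other on both, and both were called in 14 of 14 alternatives. Probe set 3 (11743627_a_at) read 113, 117 and 107 with shPLEKHO1, against 82.2, 106 and 96.9 with shNC. There the second shNC array nearly reached the lowest shPLEKHO1 array, and the difference of 0.24 ± 0.09 was not called (adjusted p = 0.0784) except without shNC replicate 2 (0.0204) and with a variance trend. The 3 probe sets did not differ in their change beyond the spread between arrays (adjusted p = 0.731 and 0.819 against the brightest).

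Background control probe sets of the array are designed to match no human sequence and are sorted by GC content. Some of them differed between the groups, in the same direction as these rises. Of 23, the groups did not overlap in deposited intensities for 7, all higher with shPLEKHO1, and overlapped for the others. Over all probe sets, the groups did not overlap for 44.5%, but on normalized values, so the shares are not on the same scale. The 7 controls were mostly those with the highest GC content. The control with the highest GC content read 2293, 2096 and 2209 with shPLEKHO1, against 1936, 1923 and 1920 with shNC, 14.2% above in these deposited intensities. Beside that, in the fit on normalized values, IGF1R probe set 3 was 37.1% above, IGF2R probe set 3 27.5%, and IRS1 probe sets 1 and 2 24.6% and 27.4%. The GC content of the member probes is not used here, and the part of this background in the result was not tested.

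Around the members, 88 genes of the axis were read in 8 lists, 1 probe set a gene (the brightest), and 82 of them were measured. Of these, 15 rose and 26 fell, where 3284 of the 18132 genes rose and 2895 fell, 34.1% together. Their median difference was -0.00, against 0.01 over all genes. Of the ligands IGF1 alone was analysed here: it read 53.1, 40.4 and 56.2 with shPLEKHO1, against 43.3, 47.1 and 39.6 with shNC (0.20 ± 0.12, limma adjusted p = 0.273), and was called without shPLEKHO1 replicate 2 (0.34, adjusted p = 0.0209). These values are of its brightest probe set, and 1 of the 5 for IGF1 rose.

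Of 16 genes of the insulin receptor family and receptor adaptors, 1 rose and 6 fell (median -0.03). IRS2, the other main docking protein, moved opposite to IRS1: it read 575, 597 and 617 with shPLEKHO1, against 779.5, 760.2 and 817 with shNC (-0.40 ± 0.05, limma adjusted p = 0.000782), and both of its probe sets fell. GRB2, the adaptor that links receptors to RAS, fell by 0.84 ± 0.05 (437 with shPLEKHO1, 781 with shNC), on 1 of its 2 probe sets. SOS1, the RAS exchange factor that GRB2 carries, fell by 0.43 ± 0.05 on its brightest probe set; of the 4 for this gene 2 rose and 2 fell, with a mean difference of -0.01. Of 10 measured genes of the PI3 kinase, AKT and FOXO steps, 3 rose and 2 fell (median 0.07). The PI3 kinase catalytic subunits PIK3CD (0.49 ± 0.04) and PIK3CB (0.41 ± 0.05) rose on every probe set. FOXO3, a transcription factor held out of the nucleus by AKT, was lower (-0.29 ± 0.05) on 1 of 3 probe sets, and the mean over the 3 was not called (adjusted p = 0.0568).

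Of 17 IGFBP proteases and their inhibitors, 3 rose and 6 fell (median -0.01). PLAU, the urokinase plasminogen activator, fell by 1.00 ± 0.05 to 296 with shPLEKHO1, against 593 with shNC, on all 3 probe sets. MMP1, a collagenase, rose by 0.88 ± 0.05 to 310.3 with shPLEKHO1, against 169 with shNC, on both probe sets. STC2, a secreted inhibitor of PAPPA, rose by 0.93 ± 0.04 on its brightest probe set (1176 with shPLEKHO1, 617 with shNC), while a second of the 3 fell, and the mean over them was not called (0.11, limma adjusted p = 0.0647). Of 13 binding partners of IGFBPs, 1 rose and 5 fell (median -0.14). TFRC, the transferrin receptor, rose 2.88-fold (4526 with shPLEKHO1, 1573 with shNC) on all 3 probe sets. RXRA, the retinoid X receptor that IGFBP3 binds in the nucleus, was 2.17-fold lower (140.3 with shPLEKHO1, 307 with shNC) on both, and the integrin chain ITGB5 fell by 0.53 ± 0.04.

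Of 10 IGFBP-related proteins 1 rose and 1 fell (median -0.01): CCN1, a matricellular protein, rose (0.43 ± 0.04), and HTRA1, a secreted serine protease also counted with the proteases, fell (-0.22 ± 0.04), each on both probe sets. Of the 3 IGF2 mRNA-binding proteins, IGF2BP3 (0.76 ± 0.06; 953 with shPLEKHO1, 558 with shNC) and IGF2BP2 (0.27 ± 0.05) rose on both probe sets each, and IGF2BP1 differed by -0.06 and was not called. Of 13 genes of mannose 6-phosphate sorting, the route that IGF2R serves, 4 rose and 7 fell (median -0.21). GNPTAB, which makes the mannose 6-phosphate tag, fell by 0.60 ± 0.04 on 3 of 4 probe sets, and PLIN3, a lipid droplet coat protein described as a carrier of these receptors, fell by 0.45 ± 0.04. SNX1, a sorting nexin of the retrieval coat, rose by 0.63 ± 0.05 on 1 probe set and fell on the other, and their mean was not called (0.14, limma adjusted p = 0.0537).

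**Figure D4:**
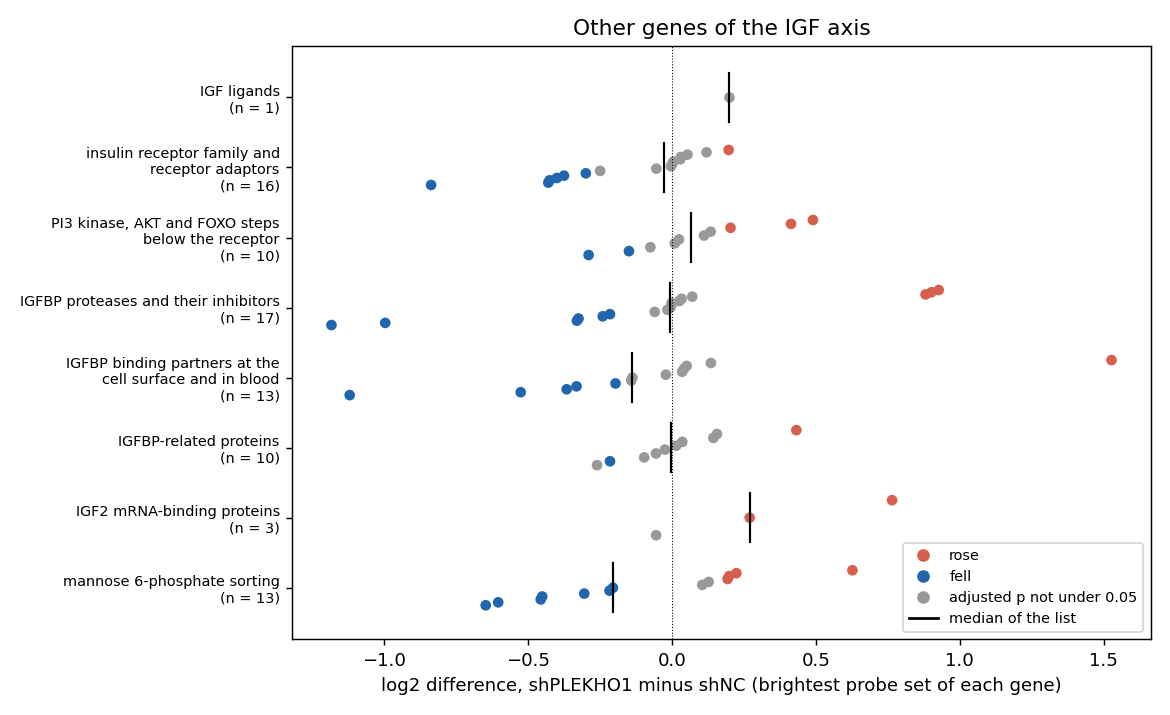
Log2 difference, shPLEKHO1 minus shNC, of the measured genes of 8 lists of the IGF axis, by the brightest probe set of each gene; red points rose, blue points fell and grey points had an adjusted p not under 0.05, and the black line is the median of the list. TFRC lies farthest right at 1.53, and 6 of the 16 receptor adaptors and 7 of the 13 sorting genes fell.

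The genes whose values over the 6 arrays lay nearest to those of IGFBP3 probe set 1, each set against its own mean with shNC, were DAPK1, GNG12, HKDC1, DUT and POM121, out of 9065 genes compared. Only genes with a mean log2 value above the median of all genes were compared. Their Euclidean distances on the log2 scale ran from 0.0546 (DAPK1) to 0.0915 (POM121), and their differences from -1.27 (HKDC1) to -1.22 (DUT). DAPK1, a death-associated kinase, fell on 2 of its 4 probe sets. GNG12, a G protein subunit, fell on 3 of 3, and HKDC1, a hexokinase domain protein, on 3 of 3. DUT, a dUTPase, fell on 4 of 4, and POM121, a nuclear pore protein, on its single probe set. The likeness is over 2 groups of 3 arrays and so describes mainly the size of the fall.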

How the data were processed

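Total RNA from 786-O cells was hybridized to 6 one-colour Affymetrix arrays, 3 a group. The deposited values are linear intensity values, 1 per probe set and array (4.33 to 19770), made, per the submitters' processing notes, in Affymetrix Expression Console; version and normalization between arrays were not given in the sources used here, and background left in the values understates the folds of dim probe sets. Of 49395 probe sets, 102 controls, 1832 with several symbols and 2569 without one were left out. Symbols were matched by Entrez identifier to RefSeq (GRCh38.p14) for 44961 probe sets, and 27 kept the array's name. From the deposited intensities, log2(intensity + 1) was computed and quantile normalized, and groups were compared with limma 3.58.1 (lmFit, eBayes) in R 4.3.3, two-sided, with Benjamini-Hochberg adjustment over 44988 probe sets, 18132 genes (brightest probe set) or 26856 pairs of a probe set and the brightest of its gene, threshold 0.05. Residual degrees of freedom were 4 and prior degrees of freedom 4.06 for the probe sets. The number of arrays limits the precision. "Rose", "fell" and "called" mean an adjusted p under 0.05. Sums and single values in the text are deposited intensities. The members and lists were chosen with earlier results of these data known. Named were all members, PLEKHO1, up to 3 genes a list with the smallest p among those called, IGF1, and the 5 genes nearest IGFBP3; the neighbours of IGFBP3 and the markers were added for context. Of the 88 list genes, 82 were measured, and the others are not analysed here. Alternatives changed normalization, pseudocount (0 or 16), dim-probe filter, variance model, array weights, replicate block, probe set of a gene and arrays left out. The tests were checked on simulated data with 50 probe sets changed at each size, far fewer than were called in the real data. The changed ones were drawn from probe sets that are not the brightest of their gene. With so few changed, the Benjamini-Hochberg cutoff was stricter than in the real data. The shares recovered are therefore not the share of such changes found in the real data. Of log2 changes of 0.25, 0.5 and 1, the test of probe sets on their own recovered 2%, 62% and 96%. The test against the brightest probe set recovered 0%, 36% and 94%.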

Additional observations from a re-analysis of the deposited data

How the results depend on the processing

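The 6 member probe sets of IGFBP3, IRS1 (2), IGF2R and IGF1R probe set 3 that were called kept direction and call in all 14 alternatives run, and the 2 others, IGFBP1 and IGF1R probe set 1, lost theirs in 10 instances without a change of sign. The member count that fell became 2 with the replicate block, and 2 to 5 over the arrays left out; the count that rose stayed at 4 to 5. With the replicate block the adjusted p was 0.0551 for IGFBP1 and 0.0763 for IGF1R probe set 1; changed probe sets numbered 12937 (14858 without it), genes 5244 (6179) and pairs 3091 (4077). No pairing by replicate number was seen: same-numbered arrays deviated with correlations of -0.15, -0.15 and -0.04, and differently numbered ones with -0.02 to 0.17. Deviations from means of 3 arrays cannot decide whether the samples were paired. With arrays left out, changed probe sets ran from 12572 to 13459, genes from 5227 to 5701, pairs from 2958 to 3356 and the PLEKHO1 difference from -0.37 to -0.25. Signs reversed for uncalled probe sets only. Median centring gave 0.0094 for IGF1R 11762635_at and 0.00162 for IGFBP5 11728653_at. Over the arrays left out, IGF1R 11762635_at ran from -0.049 to 0.028, and IGF1R 11757745_s_at from -0.037 to 0.25 and IRS1 11743627_a_at from -0.16 to 0.013 against the brightest. IGFBP4 11715463_s_at ran from -0.00132 to 0.18 and 11715464_x_at from -0.00612 to 0.17. IGFBP5 11728653_at ran from -0.075 to 0.076, 11728654_x_at from -0.17 to 0.08, 11728655_at from -0.17 to 0.017, 11728657_at from -0.13 to 0.00695 and 11758196_s_at from -0.011 to 0.074. IGFBP7 11715501_s_at ran from -0.23 to 0.015, 11758721_s_at from -0.00985 to 0.065, 11760202_at from -0.00695 to 0.10 and 11760203_x_at from -0.14 to 0.024. The cause of these shifts was not tested. Of the other genes named, SOS1, FOXO3, STC2 and SNX1 lost their call when a gene was read as the mean over its probe sets, and no other gene named from the lists or as near IGFBP3 lost one, nor did TNS3. Leaving out the lowest 30% of probe sets gave no value for dim members. Signal over background limits these: 7 member probe sets had both group means below 16.3, the lower quartile of all values.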
